A study of Mus musculus with 12 samples.

Results

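Prostaglandins are lipid messengers made from arachidonic acid, and the genes described here encode enzymes that make them: the cyclooxygenases Ptgs1 and Ptgs2, which convert arachidonic acid to prostaglandin H2, and Ptgds, the lipocalin-type synthase that turns prostaglandin H2 into prostaglandin D2. Members were the probe sets of the array annotated to exactly 1 of these 3 gene symbols. They numbered 4 of 12422 probe sets tested, 1 for Ptgs2 and 3 for Ptgds, so 2 of 8251 genes were followed. No probe set of the annotation used here carried Ptgs1 as its single symbol, and Ptgs1 was not analysed here.

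Expression was measured in total RNA of mouse hippocampus on 12 Affymetrix arrays in 4 groups of 3. The groups were mutants given kainate, mutants given saline, controls given kainate and controls given saline. The mutants had lost CREB and CREM, transcription factors that bind cAMP response elements, per the title of the series, and the labels used here do not state the alleles, the strain or the cell types in which the genes were lost. Kainate, a glutamate receptor agonist that evokes seizures, was injected at 20 mg/kg into the peritoneum of littermates of both sexes aged 5 to 6 weeks, and tissue was collected 1 hour after kainate or saline. Each array held RNA of 3 animals pooled before labelling, so a group drew on 9 animals, the 3 pools of a group were the replicates, and the spread between single animals was not seen.

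Background for these genes is as follows. Phospholipases and lipases free arachidonic acid, cyclooxygenases make prostaglandin H2 from it, and terminal synthases make prostaglandins D2, E2 and F2, prostacyclin and thromboxane, which act through G protein-coupled receptors. Ptgs2 is an immediate early gene in excitatory neurons of forebrain, where synaptic activity raises its messenger RNA within an hour, and its promoter is a textbook target of CREB. Ptgds is abundant in leptomeninges, choroid plexus and oligodendrocytes, and its protein is a major component of cerebrospinal fluid.

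The promoters are shown because the mutants lacked factors that bind cAMP response elements (CREs). Both stretches come from RefSeq (GRCm38.p6), run 5′ to 3′ on the strand of the gene, and cover 250 bases before to 30 bases after the annotated transcript start. Capitals mark matches to 5 motifs searched on both strands. They were the full CRE (TGACGTCA), the E-box (CACGTG), the AP-1 site (TGANTCA), the C/EBP site (TTGCGCAA) and a short CRE. The short CRE reads TGACG on a strand and so appears as its reverse complement when it lies on the other. The Ptgs2 stretch is chr1:150099781-150100060 on the plus strand and the Ptgds stretch is chr2:25469720-25469999 on the minus strand.
Ptgs2: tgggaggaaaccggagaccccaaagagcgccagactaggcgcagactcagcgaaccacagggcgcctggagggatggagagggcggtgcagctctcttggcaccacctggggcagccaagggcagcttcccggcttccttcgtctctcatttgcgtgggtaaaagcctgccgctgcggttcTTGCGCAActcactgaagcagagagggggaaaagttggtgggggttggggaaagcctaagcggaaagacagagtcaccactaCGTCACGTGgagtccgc
Ptgds: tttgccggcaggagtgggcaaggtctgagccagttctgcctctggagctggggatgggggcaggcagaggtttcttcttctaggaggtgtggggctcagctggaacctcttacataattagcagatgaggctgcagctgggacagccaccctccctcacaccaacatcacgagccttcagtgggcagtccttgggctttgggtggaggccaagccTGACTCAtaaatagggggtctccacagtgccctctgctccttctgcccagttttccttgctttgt

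The Ptgs2 stretch held 1 short CRE, read on the opposite strand at bases 14 to 18 after the annotated start. It overlapped an E-box at bases 17 to 22, so both stand in a joint run of capitals near the end of the printed stretch. A C/EBP site lay 69 to 62 bases before the start. Neither the full CRE nor the AP-1 site had a match. The Ptgds stretch held 1 AP-1 site, 35 to 29 bases before the start, and no match to the other 4 motifs. Of 32851 RefSeq stretches of the same length, 19.9% held a short CRE, 1.74% a full CRE, 6.79% an E-box, 7.46% the AP-1 site and 0.18% the C/EBP site. A match is a description of letters and not a binding site.

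Pairs of arrays correlated at 0.973 to 0.998 over all probe sets, which are not independent replicates. The control kainate replicate 3 array had a narrower interquartile range of 3.75 log2 units, against 4.40 to 4.62 on the other 11 arrays. Replicate 1 arrays of the 4 groups deviated together from their group means (correlations of 0.368 to 0.848). The brightest Creb1 probe set differed between mutants and controls by -0.11 averaged over treatments (SE 0.08, adjusted p = 0.63 in limma) and the brightest Crem probe set by -0.29 (SE 0.07, adjusted p = 0.141). Whether either probe set reads a deleted stretch is not stated, so they do not check the labels. The 8 measured markers of hippocampal excitatory neurons stood at percentiles 28.0 to 96.2 of mean levels, and 2 of them lay below the median level. The 8 measured markers of striatum and thalamus stood at percentiles 28.6 to 75.4, and 4 of them lay below the median level.

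Ptgs2 rose steeply with kainate in both genotypes. On the log2 scale of the deposited values the mutant kainate arrays stood at 10.35, 11.22 and 11.45, against 6.37, 6.44 and 6.96 in mutant saline arrays. The control kainate arrays stood at 10.24, 11.13 and 10.73, against 6.45, 6.84 and 6.55 in control saline arrays. In each genotype every kainate array lay more than 3 log2 units above every saline array. Replicate 1 was the lowest array of its group in every kainate and saline group. Kainate arrays that all lay above the saline arrays, by any margin, were seen for 4.98% of all probe sets in mutants and 2.29% in controls.

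Group means were 11.01 ± 0.58 in mutant kainate, 6.59 ± 0.33 in mutant saline, 10.70 ± 0.44 in control kainate and 6.62 ± 0.20 in control saline arrays (SD, n = 3 each). The rise in mutants was 4.42 on the log2 scale (SE 0.30, adjusted p = 2.4e-05 in limma), which is 21.4-fold with a 95% interval of 13.5-fold to 33.9-fold. The rise in controls was 4.08 (SE 0.30, adjusted p = 4.89e-05), which is 17.0-fold with an interval of 10.7-fold to 26.9-fold. Among all probe sets, 0.266% passed as higher in mutants (0.298% in either direction) and 0.282% in controls (0.33% in either direction). Sorted by log2 change, Ptgs2 was number 8 of 12422 in mutants and number 9 in controls.

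**Figure D1:**
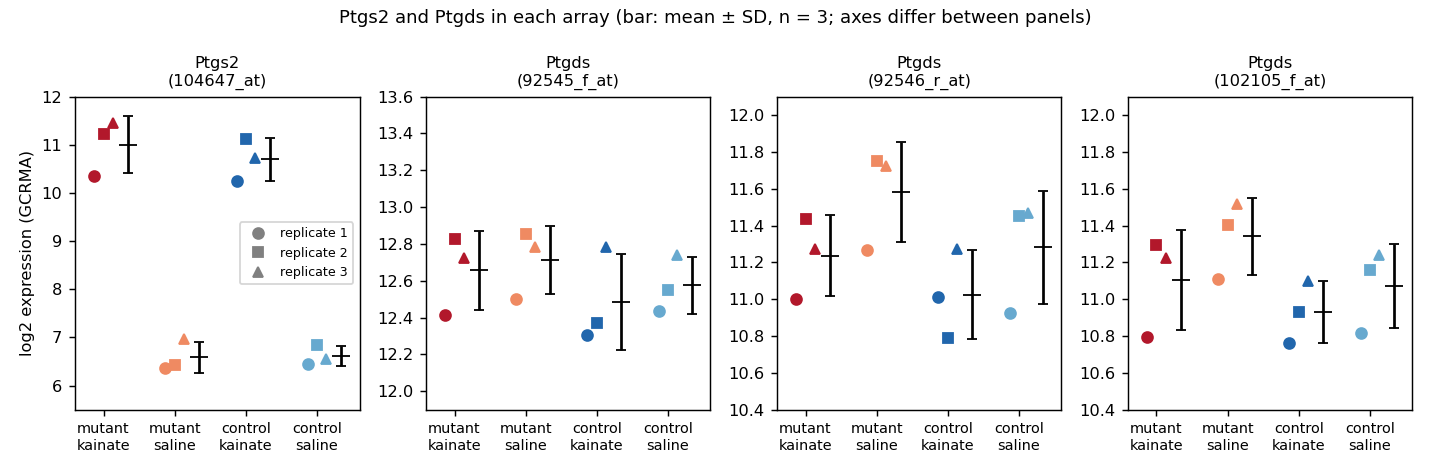
Log2 expression of the Ptgs2 probe set and the 3 Ptgds probe sets on each of the 12 arrays, by group (symbols are replicate numbers, bars mean ± SD of 3 arrays). For Ptgs2 the 6 kainate arrays lie between 10.24 and 11.45 and the 6 saline arrays between 6.37 and 6.96, while the Ptgds levels of kainate and saline arrays overlap in each genotype.

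Whether the loss of CREB and CREM altered the Ptgs2 response was asked by the interaction, the rise in mutants minus the rise in controls. It was 0.33 (SE 0.43), with a 95% interval of -0.61 to 1.28, and did not pass (adjusted p = 0.939). The fold response of mutants was 1.26 times that of controls, with an interval of 0.656 to 2.42 times. The interval holds both a weaker and a clearly stronger response in mutants, so equal responses are not shown. No probe set passed the interaction in limma (0.0% of 12422), where 107 had an unadjusted p under 0.05. Another call came with one alternative. With limma array weights, whose fit stopped before it converged, the interaction was 1.26 (adjusted p = 0.0269). The other 21 alternatives gave 0.10 to 0.77, and over all 22 the adjusted p ranged between 0.0269 and 1.

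No difference in the level of Ptgs2 between genotypes passed. Under kainate the mutant arrays (10.35 to 11.45) overlapped the control arrays (10.24 to 11.13), and the difference was 0.31 (SE 0.30, 95% interval -0.36 to 0.97, adjusted p = 0.566). Under saline the mutant arrays (6.37 to 6.96) overlapped the control arrays (6.45 to 6.84), and the difference was -0.03 (SE 0.30, interval -0.69 to 0.64, adjusted p = 1). Of all probe sets, 0.354% passed for genotype under kainate and 0.137% under saline. Averaged over treatments the genotype difference was 0.14 (SE 0.21, adjusted p = 0.715). Neighbouring groups in the order of Ptgs2 levels, mutant kainate with control kainate and control saline with mutant saline, did not differ beyond their spread. Of 8 measured markers of excitatory neurons, which express Ptgs2, 3 had a positive genotype difference averaged over treatments. Their median difference was -0.08, against -0.06 over all probe sets. Wfs1 read 8.10 to 9.06 on the mutant arrays and 9.46 to 9.99 on the control arrays. It was lower in mutants by -1.04 averaged over treatments (SE 0.14, adjusted p = 0.0082 in limma), and the other 7 measured markers did not pass. Leaving out the control kainate replicate 3 array, 2 of the 8 passed as lower, Wfs1 (-1.10) among them. The share of all probe sets that passed in that fit is not given here. The mean of the 8 markers was 7.06 to 7.54 in mutant kainate, 7.09 to 7.31 in mutant saline, 7.37 to 7.84 in control kainate and 7.47 to 7.63 in control saline arrays. The part of these neurons in the Ptgs2 values was not tested.

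**Figure D2:**
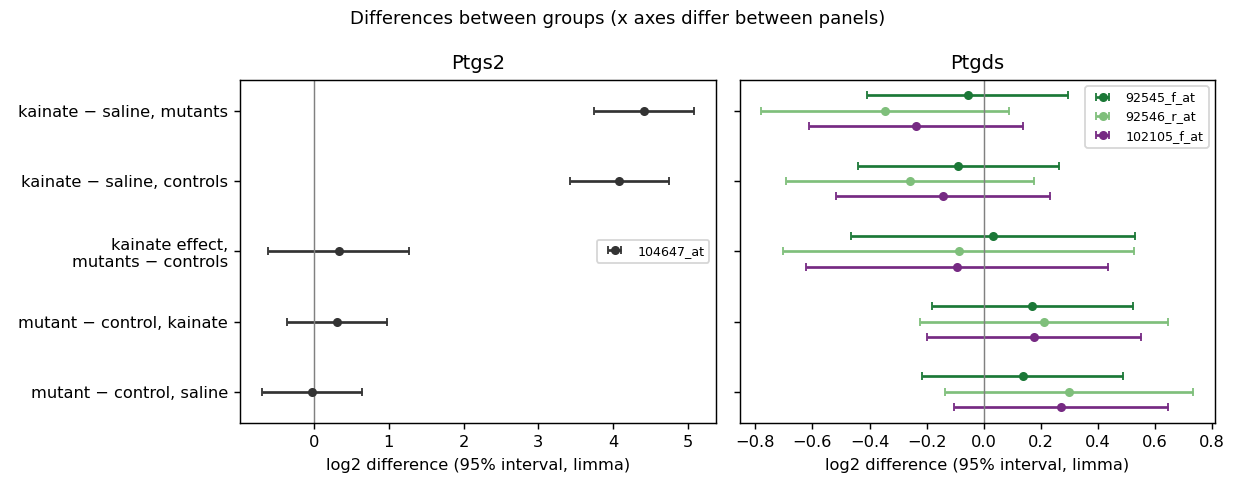
Log2 differences between groups with 95% intervals from limma, for Ptgs2 (left) and the 3 Ptgds probe sets (right). The kainate effects of Ptgs2 (4.42 in mutants and 4.08 in controls) stand clear of 0, and the intervals of the other differences drawn include 0.

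Ptgds showed no change that passed. The brightest of its probe sets read 12.41, 12.83 and 12.73 log2 units in mutant kainate arrays, against 12.50, 12.85 and 12.78 in mutant saline arrays. It read 12.31, 12.37 and 12.79 in control kainate arrays, against 12.44, 12.55 and 12.74 in control saline arrays. All 4 groups overlapped, and the 12 arrays spanned 12.31 to 12.85. Its mean level stood at percentile 99.6 of all probe sets.

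The second probe set, drawn from the same source sequence, averaged 11.24 ± 0.22 in mutant kainate, 11.58 ± 0.27 in mutant saline, 11.02 ± 0.24 in control kainate and 11.28 ± 0.31 in control saline arrays (SD, n = 3 each). The other probe set averaged 11.10 ± 0.27, 11.34 ± 0.21, 10.93 ± 0.17 and 11.07 ± 0.23 in the same groups. On both, mutants overlapped controls under each treatment and kainate arrays overlapped saline arrays in each genotype. On the last probe set the mutant saline arrays (11.11 to 11.51) all lay above the control kainate arrays (10.76 to 11.10), groups that differ in both genotype and treatment. On all 3 probe sets mutant saline had the highest group mean and control kainate the lowest. The probe sets share arrays and a transcript and are no independent evidence of that order.

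The kainate effect on Ptgds averaged over genotypes was -0.07 (SE 0.11, adjusted p = 0.9), -0.30 (SE 0.14, adjusted p = 0.438) and -0.19 (SE 0.12, adjusted p = 0.688) on the 3 probe sets in the order given. The genotype effect averaged over treatments was 0.15 (SE 0.11), 0.26 (SE 0.14) and 0.22 (SE 0.12), and the adjusted p was 0.63 on all 3. For these averaged contrasts 0.942% and 0.612% of all probe sets passed. The interaction of the brightest probe set was 0.03, with a 95% interval of -0.47 to 0.53. Array weights altered calls of all 3 Ptgds probe sets. On the brightest the averaged genotype effect was 0.34 (adjusted p = 0.000815) with array weights and 0.30 (adjusted p = 0.0329) with gene by gene weights, and over all alternatives its adjusted p ranged between 0.000815 and 0.831. With array weights the averaged kainate effect was -0.19 (adjusted p = 0.00826), -0.47 (adjusted p = 0.000128) and -0.30 (adjusted p = 0.00162) on the 3 probe sets, and the averaged genotype effect was 0.29 (adjusted p = 0.00399) and 0.32 (adjusted p = 0.00277) on the second and the last. The suffixes f and r of these names are Affymetrix codes for probes shared within a sequence family and for relaxed probe selection, so signal of related transcripts may enter.

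Markers of the tissues that express Ptgds moved between arrays too. In bulk tissue, fewer cells of a type and less RNA per cell cannot be told apart. Mean log2 levels of 6 measured choroid plexus markers of 12 listed ranged from 5.98 to 6.86 in mutant kainate, 5.79 to 6.97 in mutant saline, 5.69 to 6.54 in control kainate and 6.46 to 6.56 in control saline arrays. The 13 leptomeningeal and fibroblast markers ranged from 5.73 to 6.04, 5.84 to 6.12, 5.70 to 6.03 and 5.87 to 6.02 in the same order. The 9 oligodendrocyte markers of 13 listed ranged from 8.61 to 8.63, 8.64 to 8.97, 8.41 to 8.82 and 8.81 to 8.88. None of these 28 genes passed for kainate in either genotype or for the averaged genotype effect with all arrays. Leaving out the control kainate replicate 3 array, 1 oligodendrocyte marker passed as lower in mutants for the averaged genotype effect. The median effect of that list was then -0.17, against -0.02 over all probe sets. With all arrays it was -0.07, against -0.06 over all probe sets. The share of all probe sets that passed without that array is not given here.

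The brightest Ptgds probe set and the leptomeningeal list were each lowest on replicate 1 in every group, as was the choroid plexus list. So were the lists of astrocytes, excitatory neurons and interneurons, while the oligodendrocyte list was not, with 8.62 on replicate 1 and 8.61 on replicate 3 of mutant kainate. The choroid plexus carrier of thyroid hormone, Ttr, had kainate differences of -0.19 in mutants and -0.85 in controls (SE 0.53 each, adjusted p = 1 and 0.729). Over the 6 measured choroid plexus markers the median kainate difference was -0.06 in mutants, with 3 of 6 positive. In controls it was -0.47, with 1 of 6 positive, and -0.28 without the control kainate replicate 3 array. The mean of 12 microglial markers was higher in mutants, at 6.93 to 7.17 with kainate and 6.78 to 7.02 with saline, against 6.17 to 6.31 and 6.10 to 6.13 in controls, and 7 of the 12 passed as higher for the averaged genotype effect. The part of these cell types in the Ptgds values was not tested.

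**Figure D3:**
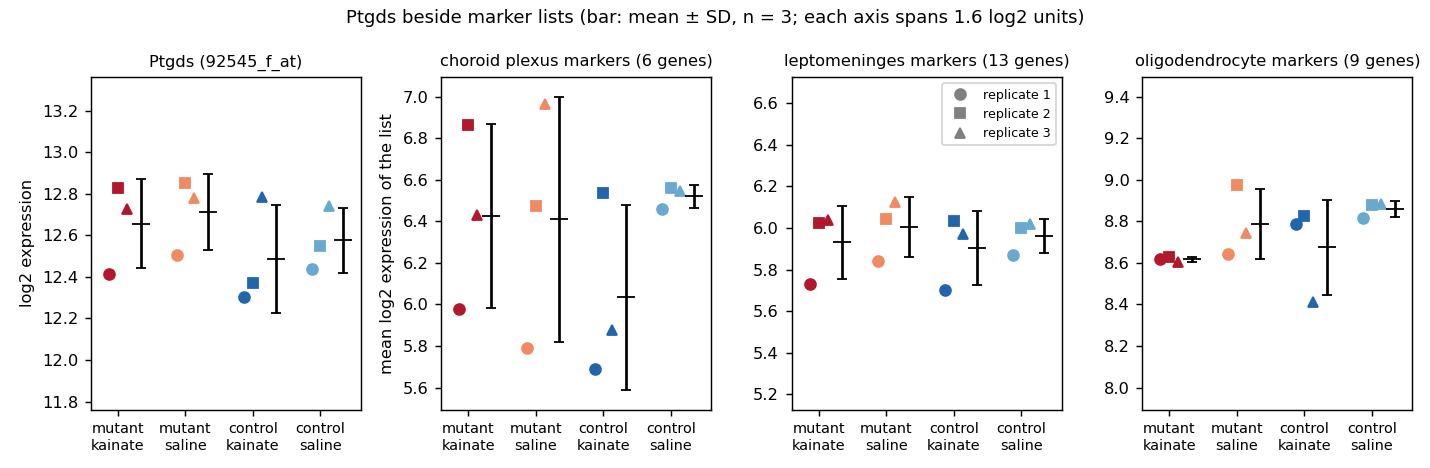
Log2 expression of the brightest Ptgds probe set beside the mean log2 expression of 3 marker lists on the 12 arrays (symbols are replicate numbers, bars mean ± SD of 3 arrays, each axis spans the same number of log2 units). Replicate 1 is the lowest array of its group for Ptgds, choroid plexus and leptomeninges but not in every group for oligodendrocytes, and the choroid plexus list spreads from 5.69 to 6.97.

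The rest of the pathway was read through 55 genes in 5 lists, of which 37 were measured by a probe set with 1 symbol. None passed in any of the 7 contrasts in limma. Many had a mean below the median level: 6 of 11 genes of arachidonate release, 4 of 6 synthases and all 10 of the receptor list. So did 2 of 2 genes of transport and breakdown and 7 of 8 of the lipoxygenase branch. The median log2 difference of the 37 was 0.00 for kainate in mutants and 0.06 in controls, against -0.02 and 0.05 over all probe sets. For the averaged genotype effect it was -0.05, against -0.06 over all probe sets. The alternatives without array weights, leaving out each array included, also gave 0 genes in each contrast. Array weights gave up to 21 genes, for genotype under saline. The share of all probe sets that passed under array weights is not given here, so that count is no result about the pathway in particular.

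Arachidonate release came first in the pathway, with 11 of 16 genes measured. Pla2g4a, the cytosolic phospholipase that supplies arachidonic acid to cyclooxygenases, had kainate differences of 0.12 in mutants and 0.16 in controls, neither of which passed. Without the control kainate replicate 3 array the difference in controls was -0.03. Mgll, the monoacylglycerol lipase that is the main source of arachidonic acid for prostaglandins in mouse brain, had differences of -0.08 and -0.11, and the one in mutants was 0.04 without mutant saline replicate 3. The largest averaged difference was that of Plaa, a phospholipase A2 activating protein, at -0.22 for genotype (SE 0.11, adjusted p = 0.63), which did not pass.

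Among terminal synthases 6 of 11 genes were measured. Ptges, the inducible prostaglandin E synthase, had kainate differences of 0.04 in mutants and 0.04 in controls, at a low level (percentile 30.6). Ptges2, the membrane-associated prostaglandin E synthase 2, had differences of 0.04 and -0.21. Cbr1, a carbonyl reductase that converts prostaglandin E2 to F2 alpha, had differences of 0.04 and -0.11. Without the control kainate replicate 3 array the differences in controls were -0.01 for Ptges, -0.05 for Ptges2 and -0.12 for Cbr1. The largest averaged difference over all arrays was that of the glutathione transferase Gstm2, at -0.16 for genotype (SE 0.13, adjusted p = 0.63), which did not pass. Without that array it was -0.03, smaller than that of Cbr1 at -0.05.

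All 10 genes of the receptor list, which includes the receptor regulator Ptgfrn, were measured. All 10 had a mean level below the median of the array, with percentiles from 0.274 to 46.3. Their list mean was 3.22 log2 units on the control kainate replicate 3 array and 2.76 to 2.93 on the other 11 arrays. The median kainate effect over the 10 genes was -0.01 in mutants and 0.12 in controls, where all 10 differences were positive. Without the control kainate replicate 3 array the median in controls was -0.03 and 0 of 10 were positive. The largest averaged difference was that of Ptger2, a receptor of prostaglandin E2, at -0.13 for genotype (SE 0.11, adjusted p = 0.63), and it was -0.03 without that array.

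Breakdown was represented by 2 of 5 genes. Ptgr1, prostaglandin reductase 1, had the largest averaged genotype difference, 0.46 (SE 0.17, adjusted p = 0.605), which did not pass and was 0.28 without mutant saline replicate 3. It read 3.47, 3.18 and 3.20 in mutant kainate arrays, against 2.77, 2.87 and 2.87 in control kainate arrays. It read 2.78, 3.01 and 3.96 in mutant saline arrays, against 2.65, 2.92 and 2.79 in control saline arrays. The kainate arrays of the genotypes did not overlap, as held for 4.03% of all probe sets in that direction, while the saline arrays did. Hpgd, which inactivates prostaglandins, had kainate differences of 0.07 in mutants and 0.12 in controls. The difference in controls was -0.08 without control kainate replicate 3, and that in mutants was -0.06 without mutant kainate replicate 1.

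In the lipoxygenase and leukotriene branch 8 of 13 genes were measured. Lta4h, the hydrolase that makes leukotriene B4, stood at 9.08, 8.71 and 8.57 in mutant kainate arrays, against 9.45, 9.04 and 9.01 in mutant saline arrays. It stood at 9.17, 8.55 and 7.44 in control kainate arrays, against 9.35, 9.09 and 9.06 in control saline arrays. Its averaged kainate effect was -0.58 (SE 0.25, adjusted p = 0.372) and did not pass. The lowest value was that of the control kainate replicate 3 array, without which the averaged effect was -0.34.

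**Figure D4:**
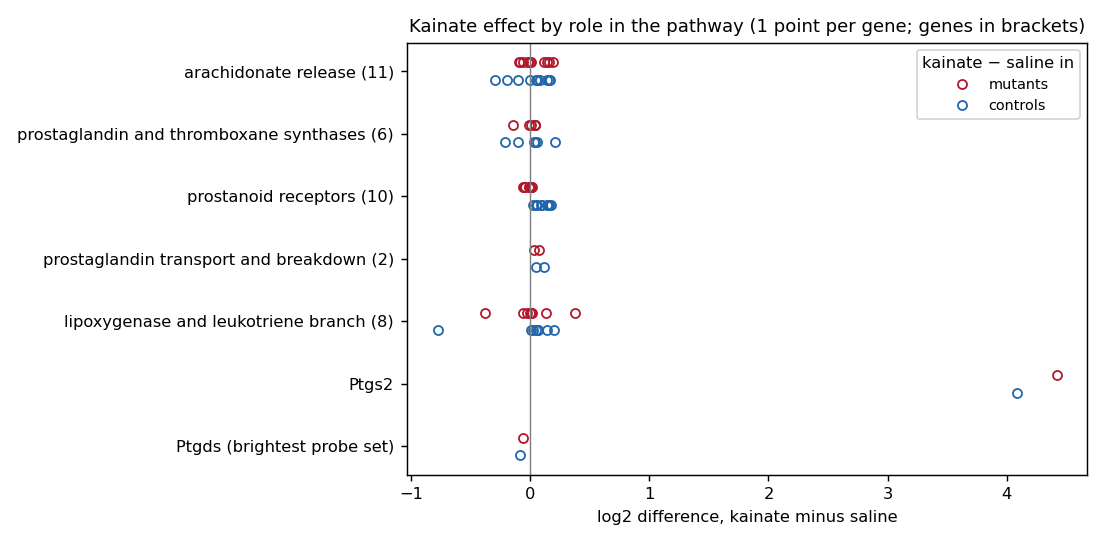
Log2 differences between kainate and saline arrays, 1 point per gene, for the 5 roles of the pathway with Ptgs2 and the brightest Ptgds probe set below, in mutants (red) and controls (blue). The brightest probe sets of the 37 other genes lie at -0.78 to 0.37, and Ptgs2 lies at 4.42 and 4.08.

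Genes whose products are known to act on Ptgs2 were read through 2 further lists. Of 16 measured transcription factors of 18 listed, 7 rose with kainate in mutants and 5 in controls, and 0 fell. Leaving out the control kainate replicate 3 array, 6 rose in controls. With all arrays, 0.266% of all probe sets passed as higher in mutants and 0.282% in controls. The AP-1 members Fos and Fosb rose by 5.92 (SE 0.13) and 5.72 (SE 0.39) in mutants and by 4.77 (SE 0.13) and 5.89 (SE 0.39) in controls. Junb rose by 3.02 and 3.21, Egr1 by 1.62 and 1.63, and Jun by 1.07 and 0.71. Jun lost its call in controls without the control saline replicate 3 array, with arrays centred on their medians, with replicates 2 and 3 only and with only the arrays compared, where the adjusted p reached 0.332. Second, dimmer probe sets of Fos and Egr1 did not pass, at 0.00 and 0.00 in mutants and 0.09 and 0.05 in controls. The dimmer probe set of Junb passed, at 4.97 in mutants and 4.90 in controls.

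Cebpb and Cebpd, the C/EBP factors, rose in mutants by 1.65 (SE 0.21, adjusted p = 0.00658) and 1.18 (SE 0.14, adjusted p = 0.00242). In controls their differences were 1.02 (SE 0.21, adjusted p = 0.147) and 0.51 (SE 0.14, adjusted p = 0.354), which did not pass. The differences between genotypes in these responses were 0.63 (SE 0.30) and 0.67 (SE 0.19), each with adjusted p = 0.939, so a genotype difference is not shown. Fos was lower in mutants under saline by -1.16 (SE 0.13, adjusted p = 0.00809), against -0.03 for Ptgs2. That Fos call was lost with replicates 2 and 3 only (adjusted p = 0.0822) and with only the arrays compared.

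Of 7 measured RNA-binding proteins of 8 listed, 2 rose in both genotypes and 0 fell. Zfp36 (tristetraprolin), which speeds the decay of messengers with AU-rich elements such as that of Ptgs2, rose by 2.04 in mutants and 1.83 in controls (SE 0.18 each). Its relative Zfp36l2, by its brightest probe set, rose by 1.66 and 1.46 (SE 0.23 each, adjusted p = 0.011 and 0.0246). The Zfp36l2 call was lost in both genotypes with median centring and with replicates 2 and 3 only, in mutants without the mutant kainate replicate 2 array, and in controls with only the arrays compared and without any of 6 arrays: control kainate replicates 1 and 2, control saline replicates 1, 2 and 3, and mutant saline replicate 2. The 2 other probe sets of Zfp36l2 gave -0.05 and 0.01 in mutants and 0.21 and 0.03 in controls and did not pass. Elavl1 (HuR), which stabilises such messengers, did not pass in any contrast.

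The genes most like Ptgs2 were sought by the root mean square difference of log2 values over the 12 arrays, each gene centred on its own mean. Among 8250 other genes the closest was Dusp1, a MAP kinase phosphatase, at 0.444 log2 units. Egr2, a zinc finger factor, followed at 0.505, Btg2, an antiproliferative gene, at 0.556, the orphan nuclear receptor Nr4a1 at 0.746 and Rgs2, a regulator of G protein signalling, at 0.771.

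Dusp1 rose by 3.65 in mutants and 3.50 in controls (SE 0.10 each), with an interaction of 0.14 (SE 0.15, adjusted p = 0.939). Its kainate arrays lay within 10.98 to 11.40, a narrower range than that of Ptgs2. Egr2 rose by 4.76 and 4.75 (SE 0.17 each). Btg2 rose by 4.64 in mutants and 5.36 in controls, with an interaction of -0.72 (SE 0.165). Rgs2 rose by 2.57 and 3.23, with an interaction of -0.66 (SE 0.32). Nr4a1 went the other way, at 4.09 and 3.33, with an interaction of 0.76 (SE 0.23). None of these interactions passed in limma (adjusted p = 0.939 each). Nr4a1 was lower in mutants under saline by -1.33 (SE 0.16, adjusted p = 0.0126), where Ptgs2 differed by -0.03. The measure ranks likeness over these arrays alone.

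**Figure D5:**
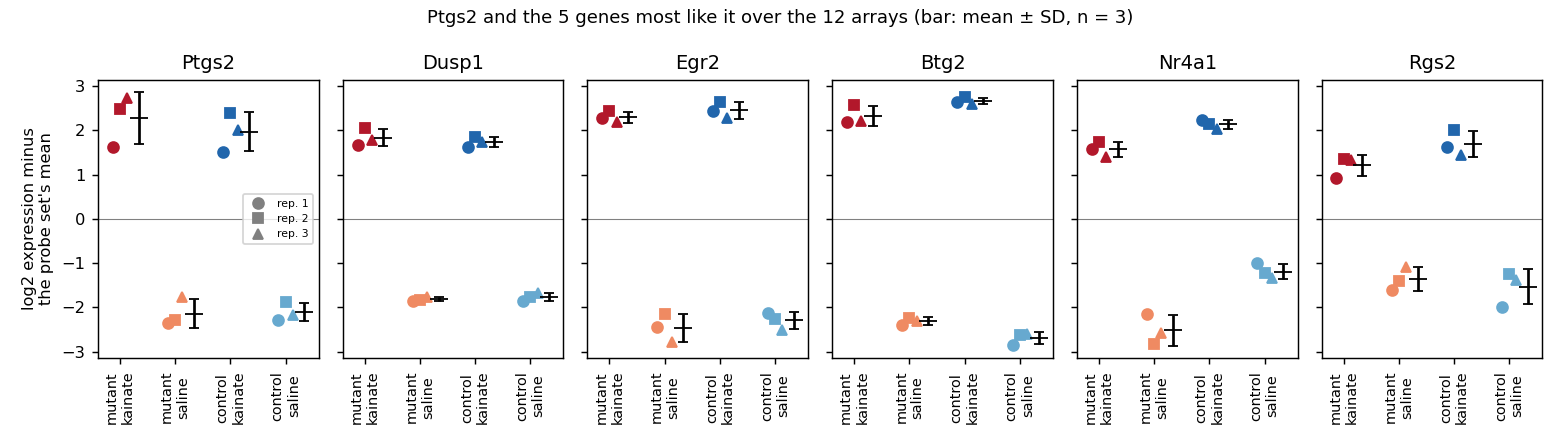
Log2 expression of Ptgs2 and of the 5 genes most like it, each minus the mean of its probe set over the 12 arrays, by group (symbols are replicate numbers, bars mean ± SD of 3 arrays). All 6 genes are high in the 2 kainate groups, and Nr4a1 is lower in mutant saline than in control saline arrays.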

How the data were processed

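Each of the 12 arrays carried labelled RNA of 3 pooled animals, per the labels' protocols. The deposited values are log2 expression per probe set, which the authors computed by GCRMA under R 2.4.1, per the submitters' processing notes. GCRMA corrects background by probe sequence and normalises quantiles, and whether all arrays were run together is not given in the sources used here. Arrays give no counts, so the number of arrays limits the precision.

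From 12488 probe sets 66 controls were removed and 12422 tested without a filter. The platform annotation gave 1 symbol to 10833, several to 396 and none to 1193. Symbols were updated by Entrez identifier through RefSeq GRCm38.p6, where 10817 matched.

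Limma 3.58.1 in R 4.3.3 fitted 1 mean per group to all 12 arrays (8 residual and 2.48 prior degrees of freedom), in 7 contrasts: kainate in each genotype, their difference, genotype under each treatment, and both averaged effects. Tests were two-sided, with Benjamini-Hochberg adjustment over all probe sets and a threshold of 0.05. Errors of differences are standard errors (SE). The code was tested on simulated data.

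A gene was represented by its probe set with the highest mean. Named were the members, Creb1 and Crem, list genes that passed in any contrast, the gene with the largest averaged difference of each pathway list in which none passed, and the 5 genes most like a member whose group means spanned over 1 log2 unit. Further genes of a list, markers, Pla2g4a, Mgll, Ptges, Ptges2, Cbr1, Hpgd, Elavl1, Wfs1 and Ttr among them, were chosen after their values were seen. Members and lists were chosen with earlier results of these data known. Tests planned for Ptgs1 were not run. The labels do not say more of the replicates than that each is a pool. Same-numbered arrays of different groups had deviations that correlated at -0.0109 to 0.848 (median 0.404). Differently numbered arrays of different groups correlated at -0.722 to 0.568 (median -0.369). The main fit did not take the numbers as pairs, and the replicate block was an alternative.

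Alternatives were the replicate block, replicate 1 as a batch, replicates 2 and 3 only, quantile normalisation, median centring, a fit of only the arrays compared, array weights, a robust prior with a trend on level, probe sets brighter than the median, probe sets averaged per gene and leaving out each array. Gene by gene array weights were added after seeing the data.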

Additional observations from a re-analysis of the deposited data

How the results depend on the processing

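The Ptgs2 rise with kainate kept its direction and its call in 23 of 23 alternatives, at 4.195 to 4.79 in mutants and 3.53 to 4.31 in controls. With the replicate block the Ptgs2 interaction was 0.33 (adjusted p = 0.899), and the block changed no call of the members. Array weights, whose fit stopped before it converged and gave the arrays weights of 0.0204 to 75.2, gave a Ptgs2 interaction of 1.26 (adjusted p = 0.0269), a Ptgs2 genotype effect under saline of -0.39 (adjusted p = 0.00155), and a Ptgds averaged genotype effect of 0.34 and kainate effect of -0.19 (adjusted p = 0.00826). Under them 4 pathway genes passed for kainate in mutants, 4 in controls, 1 for the interaction, 21 for genotype under saline, 5 for averaged genotype and 7 for averaged kainate, against 0 for each without weights. Gene by gene weights gave 0.30 for the Ptgds averaged genotype effect, and 1 pathway gene for kainate in mutants, 1 for genotype under saline and 2 for averaged kainate. The share of all probe sets that passed under either kind of weights is not given here. These counts are therefore no result about the pathway in particular. The cause of the calls that came with weights was not tested.

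Differences near 0 changed sign. The Ptgs2 genotype effect under saline was 0.0014 with replicates 2 and 3 only and -0.21 to 0.087 leaving out each array. Leaving out each array, the brightest Ptgds probe set gave -0.16 to 0.065 for kainate in mutants, -0.24 to 0.0015 for kainate in controls and -0.071 to 0.18 for the interaction, which was -0.0498 with probe sets averaged per gene. The interaction of the second Ptgds probe set was -0.24 to 0.0903 leaving out each array, 0.045 with replicates 2 and 3 only and 0.0664 with gene by gene weights. That of the other one was -0.21 to 0.0612, 0.15 with array weights and 0.071 with gene by gene weights. With 3 arrays a group, the 95% interval of the Ptgs2 interaction spanned -0.61 to 1.28. Tests planned for Ptgs1 were not run, since no probe set had it as its single symbol.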
